A study of Mus musculus with 2 samples.

Results

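Fatty acid oxidation and ketogenesis genes are described here as a set of 32 genes: the nuclear receptors and coactivators that switch the pathway on, the carnitine shuttle, the enzymes of the mitochondrial and peroxisomal cycles, the proteins that take up their electrons, omega oxidation, ketone body enzymes, and the genes Pdk4 and Fgf21. They were taken by symbol from a fixed list of names, with no measured value in the rule, and are 32 of the 32285 features counted. The list itself was chosen with earlier results of these data known. All 32 were found by symbol in both libraries. The study sequenced single cells from liver tumours of Crtc2-/- and Crtc2+/+ mice, 1 library per genotype. Both groups of mice had received the liver carcinogen diethylnitrosamine (DEN, 25 mg per kg, into the peritoneum) at 2 weeks of age and a diet named for non-alcoholic steatohepatitis from week 8 to week 26. How many mice or tumours entered a library, and which cells lack Crtc2, was not stated in the labels. Since each genotype is 1 library, differences lack replication, no p-value can be given, and genotype cannot be told apart from the animal, the tumour or the library.

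In the liver, fatty acids are handed to carnitine to cross into the mitochondrion, and each turn of the beta-oxidation cycle then shortens the chain through a dehydrogenase, a hydratase, a second dehydrogenase and a thiolase. Very long and branched chains are shortened in peroxisomes first. In fasting, hepatocytes turn the resulting acetyl-CoA into ketone bodies for other organs, under the control of the receptor PPAR alpha and the coactivator PGC-1 alpha, which is encoded by Ppargc1a. The CRTC2 protein works with CREB, a transcription factor that cyclic AMP activates, and Ppargc1a is a known CREB target in liver.

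Promoter sequences are shown for 5 members because they bear on these 2 control systems or on the largest difference found below. RefSeq windows on GRCm38.p6, from 250 bases before to 50 bases after the start of transcription, were found for 25 of the 32 members (26 windows). Capitals mark TGACG, the core of the cyclic AMP response element, and AGGTCA, the core that nuclear receptors bind, on either strand (read as CGTCA and TGACCT on the other). Ppara (chr15:85735526-85735825, plus strand), Ppargc1a (chr5:51567676-51567975, minus strand) and Acadm (chr3:153944594-153944893, minus strand) each held at least 1 of them. Acaa1b (chr9:119157044-119157343, minus strand) and its neighbour Acaa1a (chr9:119341044-119341343, plus strand) held neither.
Ppara: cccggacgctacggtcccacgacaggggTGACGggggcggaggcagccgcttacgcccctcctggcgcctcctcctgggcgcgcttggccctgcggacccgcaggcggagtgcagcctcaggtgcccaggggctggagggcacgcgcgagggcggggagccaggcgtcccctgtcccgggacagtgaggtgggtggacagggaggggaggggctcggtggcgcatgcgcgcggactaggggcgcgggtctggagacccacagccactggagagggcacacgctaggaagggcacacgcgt
Ppargc1a: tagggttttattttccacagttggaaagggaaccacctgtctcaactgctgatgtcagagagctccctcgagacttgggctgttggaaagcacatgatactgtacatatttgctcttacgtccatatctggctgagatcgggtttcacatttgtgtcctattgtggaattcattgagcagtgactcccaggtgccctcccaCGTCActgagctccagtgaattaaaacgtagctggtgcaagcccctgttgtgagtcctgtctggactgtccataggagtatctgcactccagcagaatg
Acadm: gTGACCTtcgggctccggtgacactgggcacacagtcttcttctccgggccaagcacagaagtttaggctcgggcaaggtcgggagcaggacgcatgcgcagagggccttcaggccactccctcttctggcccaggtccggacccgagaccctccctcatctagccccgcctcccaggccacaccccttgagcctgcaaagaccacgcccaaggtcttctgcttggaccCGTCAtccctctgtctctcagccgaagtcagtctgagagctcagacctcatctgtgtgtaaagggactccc
Acaa1b: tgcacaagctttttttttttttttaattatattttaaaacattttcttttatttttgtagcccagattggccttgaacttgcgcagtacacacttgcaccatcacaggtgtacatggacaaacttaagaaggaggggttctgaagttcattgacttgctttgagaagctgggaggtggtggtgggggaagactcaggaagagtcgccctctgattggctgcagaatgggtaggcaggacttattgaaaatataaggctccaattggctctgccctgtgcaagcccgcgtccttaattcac
Acaa1a: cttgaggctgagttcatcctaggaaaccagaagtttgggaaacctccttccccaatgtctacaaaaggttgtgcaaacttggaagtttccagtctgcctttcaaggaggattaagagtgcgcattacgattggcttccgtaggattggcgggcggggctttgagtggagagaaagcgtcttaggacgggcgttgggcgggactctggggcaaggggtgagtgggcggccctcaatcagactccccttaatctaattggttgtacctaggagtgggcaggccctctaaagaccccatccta
TGACG was present in 8 of the 26 member windows (30.8%), those of Acadm, Ehhadh, Etfa, Etfdh, Fgf21, Ppara, Ppard and Ppargc1a, against 20.8% of all 32851 windows. The full element TGACGTCA, which contains TGACG, was in 0 member windows and in 1.79% of all. AGGTCA was in the windows of Acadm, Acadvl, Cpt1a and Echs1 (15.4%), against 16.3% of all, and the PPAR-type direct repeat 1 (AGGTCA, any 1 base, AGGTCA, on either strand) was in 0 member windows and 0.0396% of all. In Ppargc1a TGACG began 49 bases before the start, and in Ppara 222 bases before it. These are matches of letters in a short window, with no measurement of binding.

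The deposited matrices hold 9242 barcodes and 78040008 UMIs (unique molecular identifiers, counted molecules) for Crtc2-/- and 9707 barcodes and 81487425 UMIs for Crtc2+/+. After filters 8901 and 9349 barcodes remained, with medians of 6560 and 7115 UMIs. Cells were taken by 8 gates on marker counts, and the counts of all barcodes in a gate were summed and expressed as CPM, the gate's UMIs of a gene scaled to a total of 1e6 UMIs (counts per 1e6). Crtc2 itself was still counted in the Crtc2-/- library, at 5.43 CPM (400 UMIs), against 7.96 CPM (615 UMIs) in the Crtc2+/+ library, and at 3.24 against 10.2 CPM in keratin-high hepatocytes (5 and 12 UMIs). A 3' tag outside the deleted part of a gene does not test its genotype. The libraries share 29 barcode sequences.

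Hepatocytes, which include tumour hepatocytes, were gated on Alb, Apoa1 and Ttr and split by the keratins Krt8 and Krt18. The keratin-high gate held 113 Crtc2-/- and 130 Crtc2+/+ barcodes with medians of 13106 and 8142.5 UMIs. All 12 hepatocyte markers were detected in both libraries and all 12 were higher in the Crtc2-/- library, where they summed to 45160 CPM against 21380 CPM in the Crtc2+/+ library. Cholangiocyte markers summed to 277.5 against 893 CPM, and the median mitochondrial share was 1.28% against 4.51%. Their part in the member ratios was not tested, and a split on hepatocyte transcripts is given further on.

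In keratin-high hepatocytes the members summed to 4985 CPM (4874 to 5097) in the Crtc2-/- library and 3614 CPM (3506 to 3724) in the Crtc2+/+ library. Brackets give exact 95% intervals, which cover counting error only, here and throughout. Of the 32 members, 28 had at least 20 UMIs over both libraries, and the median of their log2 ratios, Crtc2-/- over Crtc2+/+ after adding 10 CPM, was 0.22. Of these, 20 were above 0 and 8 below. All 10211 genes with as many UMIs had a median of -0.08. A log2 ratio of 1 or more was reached by 4 members, Acaa1b, Pdk4, Bdh1 and Ppara, against 5.21% of all genes, and -1 or less by 0 members, against 6.84% of all genes. A list of 21 genes of the tricarboxylic acid cycle, the pathway that burns acetyl-CoA, had a median of 0.12 in the same barcodes. The list includes the pyruvate dehydrogenase genes Pdha1, Pdhb and Dlat, which act before the cycle.

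**Figure D1:**
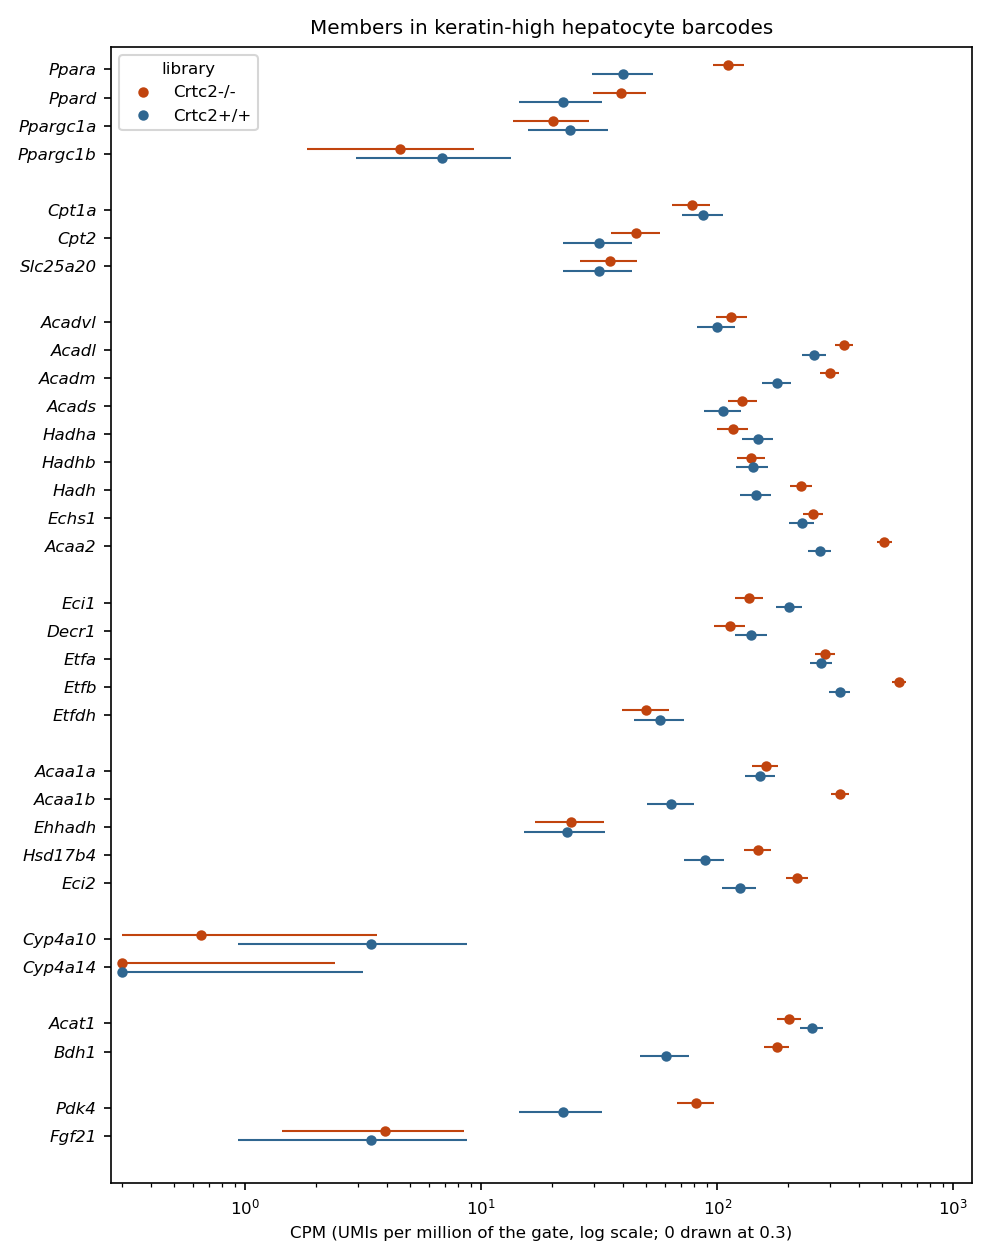
Levels of the 32 members in keratin-high hepatocyte barcodes of the Crtc2-/- (red) and Crtc2+/+ (blue) libraries, in CPM on a log axis, with exact 95% counting intervals as lines; members are grouped from top to bottom as regulators, carnitine shuttle, mitochondrial cycle, auxiliary enzymes and electron transfer, peroxisomal, omega oxidation, ketone bodies, and Pdk4 with Fgf21. Acaa1b, Bdh1, Pdk4 and Ppara stand furthest apart, while Cpt1a, Hadhb, Etfa and Acaa1a overlap.

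Among the regulators, Ppara, which encodes the fatty acid receptor PPAR alpha (ENSMUSG00000022383, GRCm38 chromosome 15, 85734983 to 85802819, plus strand), stood at 111.5 CPM (95.5 to 129.5; 172 UMIs) in Crtc2-/- keratin-high hepatocytes and 40.0 CPM (29.4 to 53.2; 47 UMIs) in Crtc2+/+ ones. The Crtc2-/- level was the higher and the intervals did not overlap, with a ratio of 2.79 (2.01 to 3.94). With each barcode thinned to 2000 UMIs, a Ppara UMI was found in 15.2% (9.10 to 23.2) of 112 Crtc2-/- barcodes and 3.39% (0.931 to 8.45) of 118 Crtc2+/+ barcodes, leaving out 1 and 12 shallower ones. Unthinned, these shares were 50.4% and 27.7%. In B cells, which should lack hepatocyte transcripts, thinned shares were 0.0842% and 0%. The sister receptor gene Ppard, active in most tissues, was at 38.9 and 22.1 CPM, a ratio of 1.76 (1.09 to 2.91). Its UMIs lay in 23 of 113 and 22 of 130 barcodes. Thinned shares were 5.36% (1.99 to 11.3) and 1.70% (0.206 to 5.99), with overlapping intervals. Ppargc1a was at 20.1 CPM (31 UMIs) and 23.8 CPM (28 UMIs), a ratio of 0.844 (0.490 to 1.46), so no difference was detectable at this depth. Ppargc1b, its close relative, had 7 and 8 UMIs.

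The carnitine shuttle was nearly level between the libraries, at a sum of 158 CPM in Crtc2-/- and 150 CPM in Crtc2+/+ keratin-high hepatocytes (ratio 1.06, 0.867 to 1.29). Cpt1a, which encodes the outer membrane transferase that limits the rate of entry, was at 77.8 CPM (120 UMIs) against 86.7 CPM (102 UMIs), a ratio of 0.897 (0.683 to 1.18). Cpt2, the inner membrane transferase, was at 45.4 against 31.5 CPM, and Slc25a20, the carrier in the inner membrane, at 35.0 against 31.5 CPM. None of these 3 intervals left out a ratio of 1.

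The 9 genes of the mitochondrial cycle summed to 2131 CPM in Crtc2-/- and 1577 CPM in Crtc2+/+ keratin-high hepatocytes, a ratio of 1.35 (1.28 to 1.43), and 7 of the 9 were above 0. Acaa2, the thiolase of the last step, was at 511 CPM (788 UMIs) against 271 CPM (319 UMIs), a ratio of 1.88 (1.65 to 2.15). Acadm, the medium-chain dehydrogenase, was at 299 against 179 CPM, a ratio of 1.67 (1.42 to 1.98). Hadh, the dehydrogenase for shorter hydroxyacyl chains, was at 226 against 145 CPM (1.56, 1.29 to 1.88), and Acadl, the long-chain dehydrogenase, at 344 against 258 CPM (1.33, 1.16 to 1.54). Hadha, which encodes the alpha subunit of the trifunctional protein, went the other way, at 116 against 149 CPM (0.780, 0.630 to 0.966). Its partner Hadhb was at 139 against 141 CPM (0.983, 0.799 to 1.21). The very long-chain dehydrogenase gene Acadvl (115 against 99.5 CPM), the short-chain one, Acads (128 against 105 CPM), and the hydratase gene Echs1 (254 against 229 CPM) had intervals that included 1. Some counting intervals within the cycle, such as those of Acaa2 and Hadha, did not overlap in this gate. They cover counting error only, so whether the cycle genes differ from each other beyond these 2 libraries was not tested.

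Auxiliary enzymes and electron transfer were divided. Etfb, the beta subunit of the flavoprotein that takes electrons from the dehydrogenases, was at 588 CPM (907 UMIs) in Crtc2-/- and 330 CPM (388 UMIs) in Crtc2+/+ keratin-high hepatocytes (1.78, 1.58 to 2.01). Its partner subunit Etfa was nearly level, at 286 against 275.5 CPM (1.04, 0.897 to 1.20), as was Etfdh, which passes the electrons on to ubiquinone, at 49.9 against 57.0 CPM (0.876, 0.623 to 1.23). Eci1, the isomerase that moves double bonds of unsaturated chains in mitochondria, was at 137 against 201.5 CPM (0.679, 0.561 to 0.821), the lowest ratio among the 28 members. Decr1, the reductase needed for polyunsaturated chains, was at 113 against 139.5 CPM (0.809, 0.650 to 1.01).

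Peroxisomal members summed to 881 CPM (835 to 929) in Crtc2-/- and 451.5 CPM (414 to 492) in Crtc2+/+ keratin-high hepatocytes, a ratio of 1.95 (1.76 to 2.16). Most of the gap came from Acaa1b, a peroxisomal thiolase gene (ENSMUSG00000010651, GRCm38 chromosome 9, 119148023 to 119157093, minus strand), at 330.0 CPM (509 UMIs) against 63.8 CPM (75 UMIs), a ratio of 5.17 (4.05 to 6.69). One Crtc2-/- barcode held 131 of the 509 UMIs, and without it the Crtc2-/- level was 251 CPM. As a mean of per-barcode CPM the log2 ratio was 0.90, against 2.20 for the summed counts. Its near-identical neighbour Acaa1a, 182582 bases away, was at 160 against 152 CPM (1.05, 0.864 to 1.28), and how the counting divided shared reads between the pair is not known. Eci2, an isomerase found in peroxisomes, was at 218.5 against 124 CPM (1.76, 1.45 to 2.15), and Hsd17b4, the multifunctional enzyme that also handles branched chains, at 148.5 against 88.4 CPM (1.68, 1.33 to 2.14). Ehhadh, the multifunctional enzyme for straight chains, was at 24.0 against 23.0 CPM (37 and 27 UMIs).

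Of the ketone body genes, Bdh1 encodes the enzyme that turns acetoacetate into beta-hydroxybutyrate (ENSMUSG00000046598, GRCm38 chromosome 16, 31422280 to 31458901, plus strand). Bdh1 stood at 179 CPM (276 UMIs) in Crtc2-/- and 60.4 CPM (71 UMIs) in Crtc2+/+ keratin-high hepatocytes, a ratio of 2.96 (2.28 to 3.90). After thinning to 2000 UMIs, a Bdh1 UMI was found in 27.7% (19.6 to 36.9) of Crtc2-/- and 9.32% (4.75 to 16.1) of Crtc2+/+ barcodes, against 61.1% and 30.0% unthinned and 0.758% and 0.192% in thinned B cells. No barcode held more than 23 of the 276 UMIs. Acat1, the mitochondrial thiolase that starts ketogenesis and also ends ketone body use, was lower, at 202 CPM (311 UMIs) against 251 CPM (295 UMIs), a ratio of 0.804 (0.683 to 0.946).

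Pdk4 encodes a mitochondrial kinase that inhibits pyruvate dehydrogenase and so holds back the oxidation of glucose when fat is burned. It was at 81.0 CPM (125 UMIs) in Crtc2-/- and 22.1 CPM (26 UMIs) in Crtc2+/+ keratin-high hepatocytes, a ratio of 3.67 (2.39 to 5.83). Those UMIs lay in 16 of 113 and 9 of 130 barcodes, with 44 of the 125 and 15 of the 26 in 1 barcode each. The counting interval takes no account of such clumping. With barcodes split at 1% of UMIs from Alb, Apoa1 and Ttr, Pdk4 was at 117 against 5.25 CPM (97 UMIs and 1) at 1% or more and at 39.3 against 25.4 CPM (28 and 25 UMIs) under 1%, where the ratio of 1.55 (0.871 to 2.77) included 1. Fgf21, a fasting hormone gene under PPAR alpha, had 6 and 4 UMIs. The omega oxidation genes Cyp4a10 and Cyp4a14, classical PPAR alpha targets in mouse liver, were nearly silent in this gate, with 1 and 4 UMIs of Cyp4a10 and 0 UMIs of Cyp4a14 in both libraries, with exact upper limits of 2.39 and 3.14 CPM.

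The keratin-high gate mixed barcodes rich and poor in hepatocyte transcripts in different proportions, so it was split at a share of 1% of UMIs from Alb, Apoa1 and Ttr, the values under 1% being added after the data were seen. In the rich barcodes, 68 Crtc2-/- and 46 Crtc2+/+, hepatocyte markers were alike at 65600 and 64690 CPM, and so was the member sum, at 5798 and 5957 CPM. In the poor barcodes, 45 and 84, the member sum was 4037 and 3161 CPM and the hepatocyte markers 21340 and 13020 CPM. Median depth in the rich barcodes was 11332.5 against 3680.5 UMIs.

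**Figure D2:**
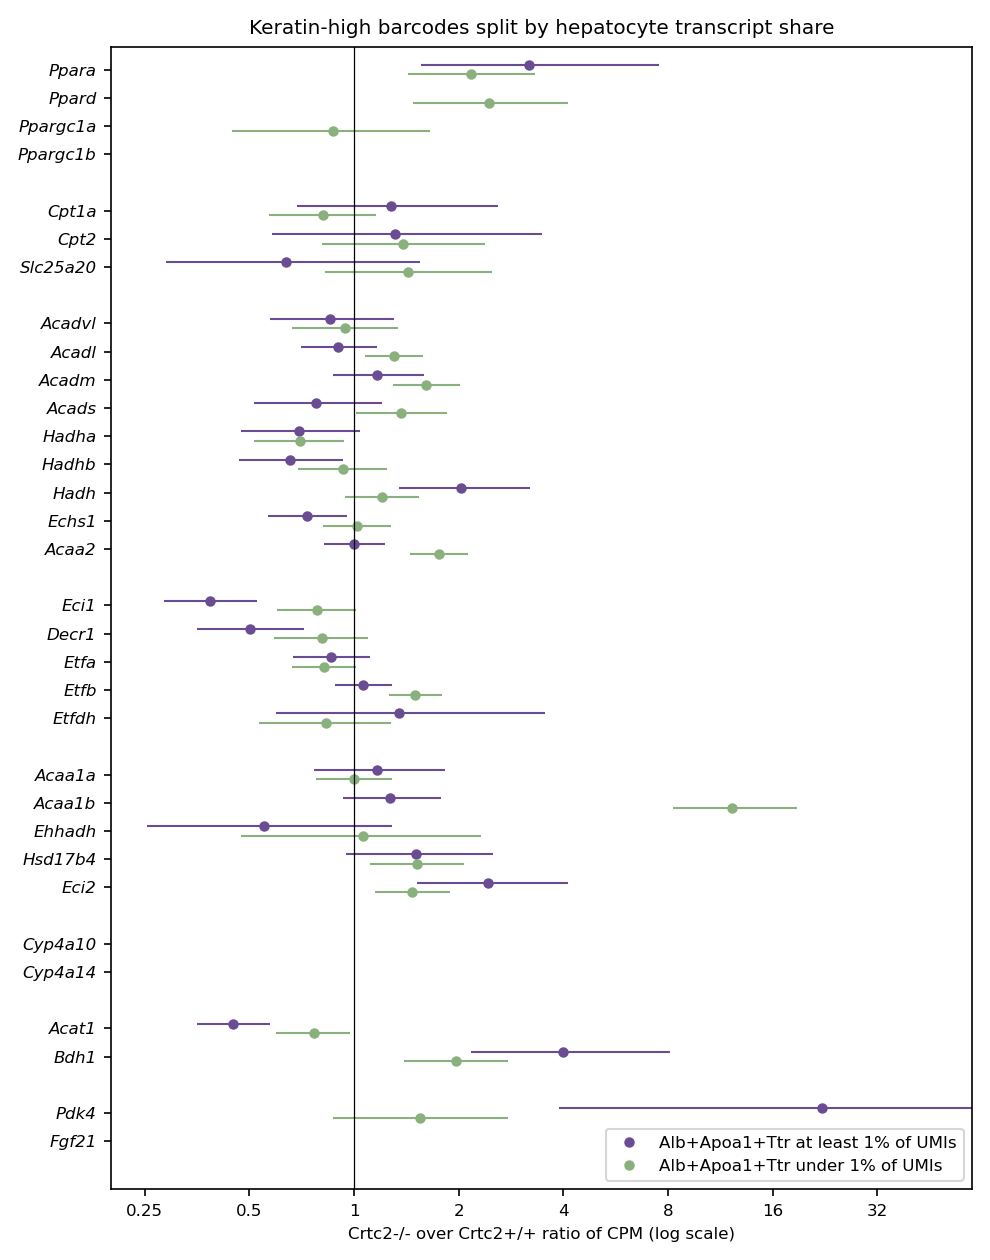
Ratio of CPM, Crtc2-/- over Crtc2+/+, for members in keratin-high barcodes with Alb, Apoa1 and Ttr at 1% of UMIs or more (purple) and under 1% (green), on a log axis with 95% counting intervals; only members with at least 20 UMIs in that subset and a UMI in both libraries are drawn, and the upper end of the Pdk4 interval is cut off. Bdh1, Ppara and Eci2 lie above 1 in both subsets and Acat1 below 1 in both, whereas Acaa1b and Acaa2 lie clearly above 1 only among barcodes under 1%.

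Bdh1 and Ppara were higher in the Crtc2-/- library in both subsets. Bdh1 was at 230.0 against 57.8 CPM in rich and 119 against 60.9 CPM in poor barcodes, ratios of 3.98 (2.18 to 8.11) and 1.96 (1.39 to 2.78). Ppara was at 134 against 42.0 CPM in rich and 85.7 against 39.6 CPM in poor barcodes (3.18, 1.56 to 7.55, and 2.17, 1.43 to 3.32). Eci2 kept its direction as well, at 243 against 99.8 CPM and 190 against 129 CPM. Acaa1b differed by subset: it was at 314 against 247 CPM in rich barcodes (1.27, 0.930 to 1.78) and at 348 against 28.4 CPM in poor ones (12.3, 8.28 to 18.8). These intervals take no account of clumping. Which subset holds the Crtc2-/- barcode with the most Acaa1b UMIs, described above, was not determined. Acaa2 was at 650 against 651 CPM in rich barcodes (0.998, 0.820 to 1.22) and 348 against 198 CPM in poor ones (1.76, 1.45 to 2.13). Etfb likewise was at 765 against 720 CPM (1.06, 0.882 to 1.29) and 382 against 255 CPM (1.50, 1.26 to 1.79). In the rich barcodes several enzymes were lower in the Crtc2-/- library: Eci1 at 140 against 362.5 CPM (0.385, 0.284 to 0.527), Acat1 at 248 against 552 CPM (0.450, 0.354 to 0.575) and Decr1 at 129 against 257 CPM (0.501, 0.354 to 0.717). In these rich barcodes the member sum was thus nearly level, and members diverged in both directions. Depth and keratins (2138 against 3110 CPM) still differed there, and what part the hepatocyte share played was not tested.

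Keratin-low hepatocytes gave a different picture, from far fewer counts. The gate held 54 Crtc2-/- and 72 Crtc2+/+ barcodes with medians of 1722.5 and 1720.5 UMIs and hepatocyte markers at 85210 and 79570 CPM. Median mitochondrial shares were 0.230% and 8.28%, leukocyte markers summed to 3600 and 1642 CPM and neutrophil markers to 42.3 and 764 CPM, and the part of these gaps in the results was not tested. The members summed to 4367 CPM (4054 to 4697) in the Crtc2-/- and 5771 CPM (5404 to 6156) in the Crtc2+/+ library. Of the 20 members with at least 20 UMIs, 7 were above 0 and 13 below. Their median was -0.47, beside 0.06 for all 2294 genes and -0.45 for 15 genes of the tricarboxylic acid cycle list. Bdh1 and Acaa1a were past a log2 ratio of 1, against 18.0% of all genes, and Acat1 and Hadha past -1, against 12.1%.

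**Figure D3:**
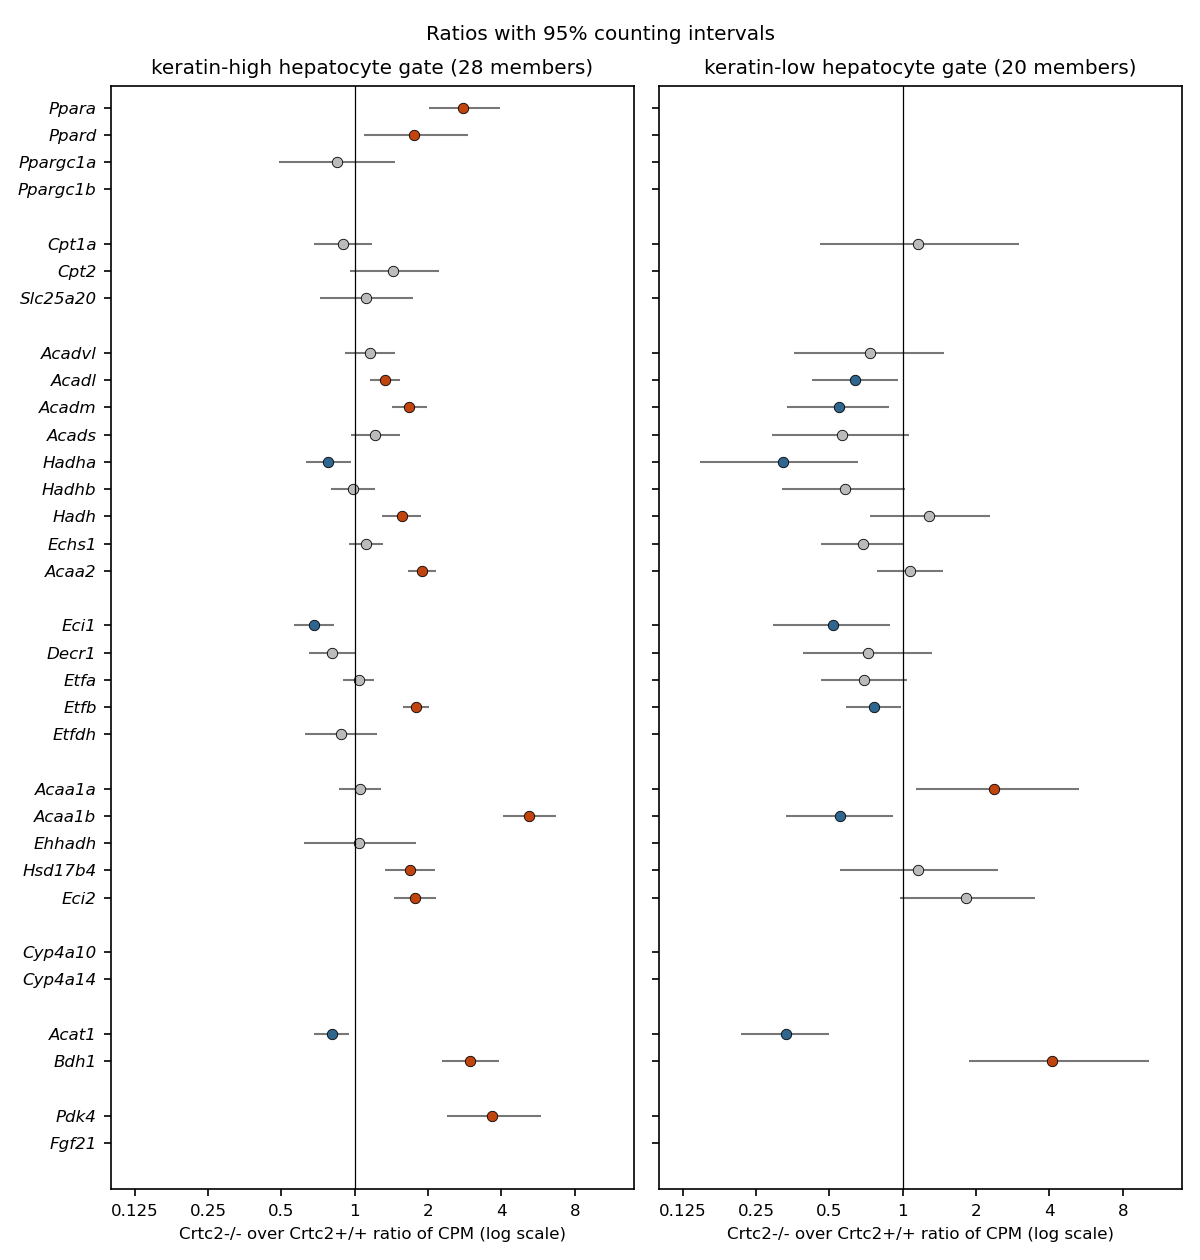
Ratio of CPM, Crtc2-/- over Crtc2+/+, for members with at least 20 UMIs in the keratin-high gate (left, 28 members) and the keratin-low gate (right, 20 members), on a log axis with 95% counting intervals; red points have an interval above 1, blue points below 1 and grey points include 1. Bdh1 lies above 1 and Acat1, Hadha and Eci1 below 1 in both gates, while Acadl, Acadm, Etfb and Acaa1b lie on opposite sides.

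Bdh1 was at 205 CPM (34 UMIs, in 18 of 54 barcodes) in Crtc2-/- keratin-low hepatocytes and 50.1 CPM (8 UMIs, in 8 of 72 barcodes) in Crtc2+/+ ones, a ratio of 4.10 (1.86 to 10.2). Its direction was that of the keratin-high gate. Acat1 was at 199 CPM (33 UMIs) against 601.5 CPM (96 UMIs), a ratio of 0.331 (0.216 to 0.497). Hadha was at 66.4 against 207 CPM (0.321, 0.147 to 0.652), Hadhb at 127 against 219 CPM (0.578, 0.320 to 1.02), and Eci1 at 133 against 257 CPM (0.517, 0.293 to 0.889). The dehydrogenase genes Acadm (175 against 319.5 CPM) and Acadl (260 against 407 CPM) were lower too, and Acads (103 against 182 CPM), Acadvl (96.6 against 132 CPM) and Echs1 (284 against 413.5 CPM) had intervals that reached 1. The 9 mitochondrial cycle genes together had a ratio of 0.728 (0.626 to 0.847). Acaa2 (544 against 507.5 CPM) and Hadh (193 against 150 CPM) were the cycle genes above 0.

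Etfb was at 658 against 865 CPM (0.761, 0.587 to 0.986) in keratin-low hepatocytes, and Etfa at 266 against 382 CPM. Decr1 was at 127 against 175 CPM, and Etfdh had 5 and 6 UMIs. The peroxisomal sum was level, at 646 against 633 CPM (1.02, 0.771 to 1.35), but its thiolase genes were opposed. Acaa1a was at 163 against 68.9 CPM (2.37, 1.14 to 5.29) and Acaa1b at 163 against 294.5 CPM (0.554, 0.332 to 0.908). Eci2 was at 193 against 106.5 CPM, and Hsd17b4 at 109 against 94.0 CPM. Ehhadh had 3 and 11 UMIs. Cpt1a had 12 and 10 UMIs, Cpt2 5 and 5, and Slc25a20 3 and 6. Ppara had 7 UMIs in 7 barcodes against 6 UMIs in 1 barcode, Ppard 8 and 2 UMIs, Ppargc1a 2 and 0, and Ppargc1b 1 and 0. Cyp4a10 had 0 UMIs in Crtc2-/- and 7 UMIs in 5 barcodes in Crtc2+/+ keratin-low hepatocytes, the only gate in which it exceeded 4 UMIs in a library, and Cyp4a14 had 0 and 1. Fgf21 had 4 and 0 UMIs, and Pdk4 had 0 in both.

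The 2 hepatocyte gates were also set against each other within each library, and the outcome differed by library. The member sum was higher in the keratin-high gate in Crtc2-/- (4985 against 4367 CPM) and in the keratin-low gate in Crtc2+/+ (5771 against 3614 CPM). In the Crtc2-/- library the members' median log2 ratio, keratin-high over keratin-low, was 0.22, beside 0.32 for all 8448 genes, with 2 members past 1 (19.4% of all genes) and 0 past -1 (5.1% of all genes). In the Crtc2+/+ library it was -0.32, beside 0.69 for all 8138 genes, with 3 members past 1 (37.8% of all genes) and 4 past -1 (5.23% of all genes). The 2 gates were of unequal size, 1175972 and 159604 UMIs in that library. A gene with 20 UMIs in the keratin-high gate alone was counted, so these shares and all-gene medians are an uneven background. Of the members past 1 there, Ppargc1a (28 and 0 UMIs) and Pdk4 (26 and 0 UMIs) passed this way, with intervals that included 1. Acaa1b was at 63.8 CPM in keratin-high and 294.5 CPM in keratin-low Crtc2+/+ hepatocytes (0.217, 0.148 to 0.319), Etfb at 330 and 865 CPM (0.382, 0.313 to 0.467), and Acat1 at 251 and 601.5 CPM (0.417, 0.330 to 0.531). In the Crtc2-/- library Etfb was at 588 and 658 CPM (0.893, 0.732 to 1.10) and Acat1 at 202 and 199 CPM (1.01, 0.705 to 1.50). Acaa1b ran the other way there, at 330.0 and 163 CPM (2.02, 1.37 to 3.10). The difference between the libraries was not tested.

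Other genes of the pathway, 57 by list, were more divided than the members. In keratin-high hepatocytes 50 had at least 20 UMIs, with a median of 0.14; 10 were past a log2 ratio of 1 (5.21% of all genes) and 5 past -1 (6.84% of all genes). Fabp1, the liver fatty acid binding protein gene, was at 7249 CPM (11181 UMIs) in Crtc2-/- and 96.9 CPM (114 UMIs) in Crtc2+/+ barcodes, a ratio of 74.8 (62.2 to 90.7), and Fabp5, its epidermal relative, at 1079 against 115 CPM. Acot12, an acetyl-CoA hydrolase gene, was at 49.3 against 4.25 CPM, and Abcd2, a peroxisomal transporter gene, at 29.2 against 0.850 CPM (45 UMIs and 1). Oxct1, the enzyme that lets tissues other than normal liver burn ketone bodies, was lower, at 11.0 CPM (17 UMIs) against 127 CPM (149 UMIs), a ratio of 0.0870 (0.0494 to 0.144). Cyp4a12a, an omega hydroxylase gene, was at 0.648 against 40.8 CPM (1 and 48 UMIs).

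In keratin-low hepatocytes 17 of the 57 had at least 20 UMIs, with a median of 0.16, 4 past 1 (18.0% of all genes) and 3 past -1 (12.1% of all genes). Fabp1 (8957 against 865 CPM), Fabp5 (1003 against 25.1 CPM) and Acsl4, an activating enzyme for arachidonate (193 against 43.9 CPM), were higher in the Crtc2-/- library. Cyp4a12a (0 against 36 UMIs), the fatty acid transporter gene Cd36 (24.2 against 294.5 CPM) and Ech1, a dienoyl isomerase gene (175 against 439 CPM), were lower.

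Outside hepatocytes the set was at a lower level, with member sums between 835 CPM in Crtc2+/+ CD8 T cells and 1941 CPM in the Crtc2+/+ Sox5 myeloid gate. Free hepatocyte RNA reaches other cells, so each level was set beside the level that the 12 hepatocyte markers of the same gate would bring along. Ppara, Acaa1b and Bdh1 were below that level in macrophages of both libraries, except for 2 UMIs of Acaa1b in Crtc2+/+ Kupffer cells. In non-Kupffer macrophages Acaa1b was at 1.77 CPM in Crtc2-/- and 0.891 CPM in Crtc2+/+ cells, with 2.83 and 1.09 CPM from free RNA. Hadha, Hsd17b4, Ppard and Cpt1a were far above it in every gate other than Sox5 myeloid. In those 5 gates Hadha ranged from 56.1 to 90.1 CPM, with at most 3.55 CPM from free RNA, and Ppard from 26.4 to 68.2 CPM, with at most 0.478 CPM. Hsd17b4 reached 147 CPM in Crtc2-/- and 133 CPM in Crtc2+/+ Kupffer cells, as high as in keratin-high hepatocytes of the Crtc2-/- library. Pdk4 was nearly absent from leukocytes, with 0 or 1 UMI per library in the macrophage, CD8 T and B gates.

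**Figure D4:**
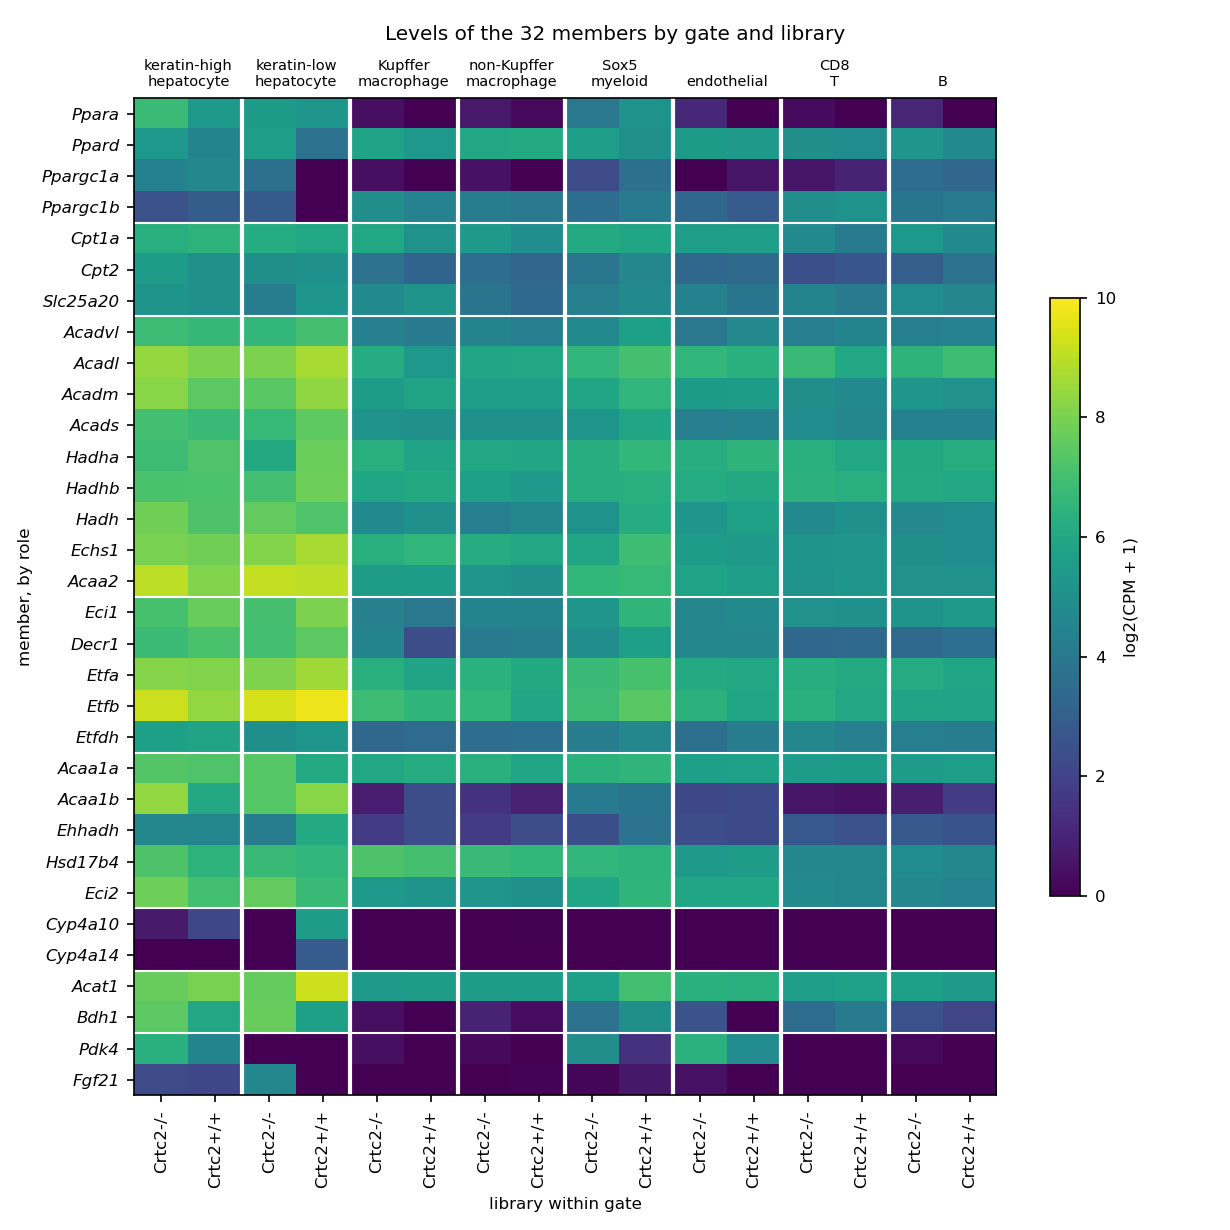
Levels of the 32 members as log2(CPM + 1), by colour, in the 8 gates with the Crtc2-/- library left of the Crtc2+/+ library; rows are members, with white lines between the role groups. The mitochondrial cycle and electron transfer genes are present in every gate, whereas Ppara, Acaa1b and Bdh1 are bright in hepatocytes and dark in macrophages, and Pdk4 is bright in keratin-high hepatocytes, the endothelial gate and the Crtc2-/- Sox5 myeloid gate.

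Macrophages carrying complement C1q genes were split into Kupffer cells, the resident macrophages of liver (203 Crtc2-/- and 31 Crtc2+/+ barcodes), and others (436 and 4576 barcodes). In Kupffer cells 23 members had a median of 0.14, beside 0.02 for all 9366 genes. Decr1 was the only member past 1, where 1.79% of all genes were, at 21.3 CPM (63 UMIs) against 4.16 CPM (2 UMIs), a ratio of 5.13 (1.36 to 43.3). Cpt1a was at 62.3 CPM (184 UMIs) against 33.3 CPM (16 UMIs), a ratio of 1.87 (1.12 to 3.35), and Acadl at 71.4 against 39.5 CPM (1.81, 1.13 to 3.06). Etfa was at 79.2 against 56.1 CPM (1.41, 0.945 to 2.19). No member was past -1, against 1.46% of all genes.

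In non-Kupffer macrophages 25 members had a median of 0.10, beside -0.01 for all 13440 genes, and 0 members were past 1 or -1, where 1.71% and 1.32% of all genes were. Etfb was at 97.1 CPM (493 UMIs) in Crtc2-/- and 59.6 CPM (2675 UMIs) in Crtc2+/+ cells, a ratio of 1.63 (1.48 to 1.79). Acaa1a was at 81.3 against 58.6 CPM (1.39, 1.25 to 1.54), Cpt1a at 41.5 against 29.0 CPM (1.43, 1.23 to 1.66) and Etfa at 83.3 against 66.7 CPM (1.25, 1.13 to 1.38). Set over non-Kupffer macrophages of the same library, Kupffer cells had 0 of 23 members past 1 in the Crtc2-/- library (2.12% of all genes) and 1 of 25, Slc25a20, in the Crtc2+/+ library (3.63% of all genes), and 0 past -1 in either (1.31% and 2.87% of all genes). Kupffer cells were above the other macrophages of their own library for Slc25a20, at 25.7 and 13.6 CPM in Crtc2-/- and 35.3 and 9.56 CPM in Crtc2+/+ cells. For Hsd17b4 they were at 147 and 105 CPM in Crtc2-/- and 133 and 98.0 CPM in Crtc2+/+ cells. Both intervals lay above 1 in each library.

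The endothelial gate, on Ptprb and Stab2, held 514 Crtc2-/- and 212 Crtc2+/+ barcodes, and 27 members had a median of 0.04, beside -0.04 for all 11626 genes. Pdk4 was the only member past 1, where 1.71% of all genes were, at 82.2 CPM (468 UMIs) against 27.2 CPM (51 UMIs), a ratio of 3.02 (2.26 to 4.12). The UMIs lay in 176 and 26 barcodes. The libraries differed in their makeup within the gate: 442 of 514 Crtc2-/- barcodes had at least 3 UMIs of Stab2, a scavenger receptor gene of sinusoidal endothelium, against 68 of 212 Crtc2+/+ barcodes. In a split added after the data were seen, Pdk4 was at 90.1 CPM (82.1 to 98.7) in Crtc2-/- and 89.8 CPM (66.0 to 119.5) in Crtc2+/+ barcodes with at least 3 Stab2 UMIs, a ratio of 1.003 (0.742 to 1.39). In the remaining barcodes Pdk4 was at 8.98 CPM (5 UMIs) against 2.96 CPM (4 UMIs). Pdk4 was thus found mainly in Stab2-rich barcodes, at nearly the same measured level in both libraries. The members' median was higher in both subsets than in the whole gate. It was 0.23 in Stab2-rich barcodes (21 members above 0, 6 below), beside 0.004 for all 11019 genes. In the others it was 0.19 (13 above, 8 below), beside -0.05 for all 9043 genes. In Stab2-rich barcodes the intervals of Acaa1a (2.10, 1.18 to 4.13) and Acadl (1.53, 1.07 to 2.27) lay above 1. That of Ppard (0.639, 0.448 to 0.936) lay below.

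**Figure D5:**
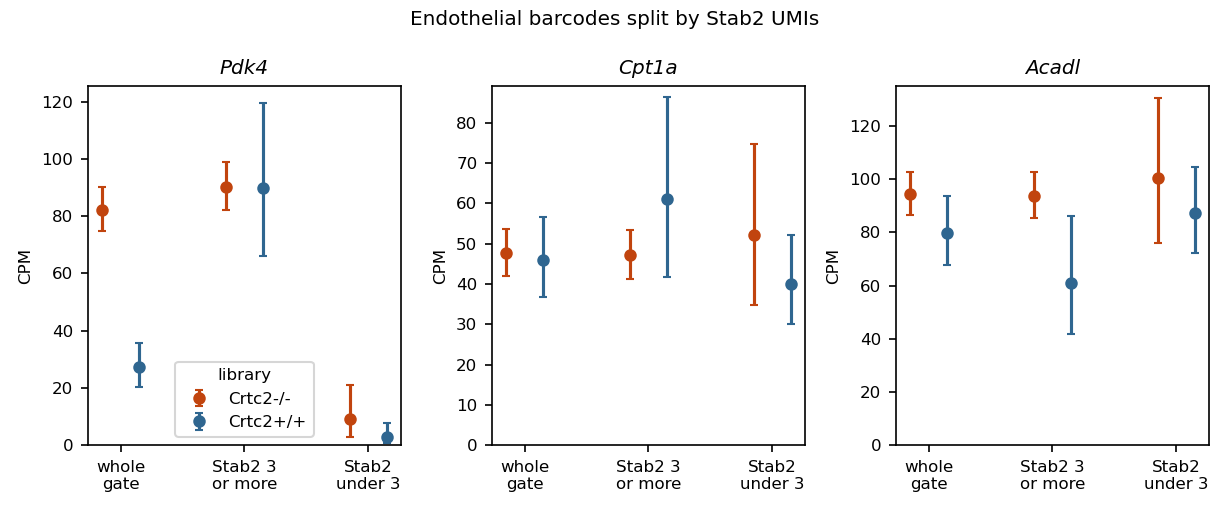
Levels of Pdk4, Cpt1a and Acadl in CPM in the whole endothelial gate and in its barcodes with 3 or more and under 3 Stab2 UMIs, for the Crtc2-/- (red) and Crtc2+/+ (blue) libraries, with exact 95% counting intervals. Pdk4 differs 3.02-fold over the whole gate and stands at 90.1 and 89.8 CPM in the Stab2-rich barcodes.

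The other named members of the endothelial gate differed less. Etfb was at 84.1 CPM in Crtc2-/- and 59.7 CPM in Crtc2+/+ barcodes (1.41, 1.15 to 1.75), Acadvl at 14.8 against 25.1 CPM (0.589, 0.407 to 0.860) and Hadh at 37.1 against 51.2 CPM (0.724, 0.566 to 0.932). Acadvl and Hadh also differed between the Stab2 subsets. Acadvl was at 14.2 against 7.65 CPM in Stab2-rich and 19.8 against 31.8 CPM in other barcodes. Hadh was at 36.0 against 36.3 CPM (0.991, 0.617 to 1.68) in Stab2-rich and 46.7 against 56.9 CPM (0.821, 0.505 to 1.30) in other barcodes, so both intervals included 1. Bdh1 had 28 and 0 UMIs, of which 13 lay in 1 barcode. No member was past -1, against 2.66% of all genes.

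In CD8 T cells, 1483 Crtc2-/- and 956 Crtc2+/+ barcodes, 25 members had a median of 0.07, beside 0.03 for all 11683 genes, and 0 members were past 1 or -1, where 0.822% and 0.608% of all genes were. Acadl was at 105 CPM (877 UMIs) against 62.6 CPM (338 UMIs), a ratio of 1.68 (1.48 to 1.91). Cpt1a was at 25.7 against 16.5 CPM (1.56, 1.21 to 2.02) and Etfb at 79.4 against 61.9 CPM (1.28, 1.12 to 1.47). Bdh1 was lower, at 10.6 CPM (88 UMIs, in 83 barcodes) against 16.5 CPM (89 UMIs, in 81 barcodes), a ratio of 0.641 (0.472 to 0.870), where free RNA would bring 0.264 and 0.176 CPM. Bdh1 was thus measured in CD8 T cells well above that background in both libraries.

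In B cells, 1192 and 543 barcodes, 26 members had a median of 0.08, beside -0.02 for all 11165 genes, and 0 members were past 1 or -1, where 0.86% and 0.224% of all genes were. Cpt1a was at 39.5 CPM in Crtc2-/- and 26.4 CPM in Crtc2+/+ cells (1.50, 1.12 to 2.03), Ppard at 35.9 against 26.4 CPM (1.36, 1.01 to 1.85), Cpt2 at 7.05 against 12.5 CPM (0.564, 0.343 to 0.946) and Acadl at 89.4 against 117.5 CPM (0.761, 0.655 to 0.886). Acadl therefore lay on opposite sides of 1 in the B and CD8 T gates. Ppargc1a was counted in B cells of both libraries, at 10.7 CPM (68 UMIs) and 8.79 CPM (19 UMIs), with 0.211 and 0.316 CPM from free RNA. In the T cell and macrophage gates it had at most 5 UMIs in a library.

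The Sox5 myeloid gate, on Sox5 with Lyz2, Fcer1g, Tyrobp and Csf1r, held 705 Crtc2-/- and 129 Crtc2+/+ barcodes, of which 663 and 88 lay outside the hepatocyte gate. Hepatocyte markers summed to 5922 and 7264 CPM and keratins to 318 and 1316 CPM in it. Its 29 members had a median of -0.49, beside -0.11 for all 12610 genes, with 1 member past 1 (4.69% of all genes) and 2 past -1 (10.2% of all genes). Acat1 was at 48.7 against 124 CPM, Eci1 at 38.1 against 93.2 CPM and Hadh at 32.9 against 72.7 CPM. Pdk4 was at 30.1 against 1.70 CPM, from 208 and 3 UMIs, and 152 of the 208 lay in 1 barcode.

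Most of these Sox5 values were smaller once hepatocytes were kept out. Outside the hepatocyte gate the median of 23 members was -0.08, with keratins still at 523 CPM in the Crtc2+/+ library. Pdk4 had 2 and 1 UMIs there. Hadh remained lower, at 11.25 against 24.25 CPM (0.464, 0.289 to 0.767), as did Acat1, at 39.6 against 56.25 CPM (0.705, 0.527 to 0.956), while the interval for Eci1, at 27.5 against 36.9 CPM, included 1 (0.747, 0.522 to 1.09). In barcodes that also had under 4 keratin UMIs, a limit added after the data were seen, 662 and 75 remained, keratins were at 3.20 and 9.78 CPM and the median was 0.17, beside -0.02 for all 10891 genes. There Acaa2 was at 65.7 CPM (390 UMIs) in Crtc2-/- and 17.1 CPM (14 UMIs) in Crtc2+/+ barcodes, a ratio of 3.84 (2.26 to 7.09). Cpt1a was at 59.9 against 28.1 CPM (2.13, 1.40 to 3.41) and Hadh at 11.1 against 15.9 CPM (0.699, 0.382 to 1.38). Acat1 was level at 39.7 against 39.1 CPM (1.02, 0.700 to 1.52).

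Cpt1a had a ratio above 1 in all 6 gates other than hepatocytes, with intervals above 1 in Kupffer cells, non-Kupffer macrophages, CD8 T cells and B cells, and including 1 in the endothelial (1.04, 0.812 to 1.34) and Sox5 myeloid (1.18, 0.951 to 1.47) gates. Within the endothelial gate its direction was not uniform, with a ratio of 0.770 (0.531 to 1.15) in Stab2-rich barcodes and 1.31 (0.801 to 2.09) in the others. In keratin-high hepatocytes the Cpt1a ratio was 0.897. It was 1.28 (0.687 to 2.60) in those with hepatocyte transcripts at 1% or more and 0.815 (0.569 to 1.16) under 1%. In keratin-low hepatocytes Cpt1a was also above 1, at 72.5 CPM (12 UMIs) in Crtc2-/- against 62.7 CPM (10 UMIs) in Crtc2+/+, with an interval that included 1. A ratio above 1 was therefore not particular to the gates other than hepatocytes. All these values come from the same 2 libraries, so they are not independent of each other, and the differences between gates were not tested.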

How the data were processed

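Single-cell 3' RNA libraries from liver tumours, 1 Crtc2-/- and 1 Crtc2+/+, were used as the authors' deposited UMI count matrices of 32285 features. They were made with Cell Ranger 7.1.0, per the file headers, and the submitters' processing notes name mm10 and Seurat. Whether intronic or antisense reads were counted was not stated in the labels. Barcodes with under 500 UMIs, under 250 genes or over 20% mitochondrial UMIs were left out, and Scrublet (scanpy 1.11.5) called 273 Crtc2-/- and 263 Crtc2+/+ doublets (2.98% and 2.74%), which were removed.

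Gates were UMI sums: hepatocyte, Alb, Apoa1 and Ttr at 20 or more, keratin-high with Krt8 and Krt18 at 4 or more; macrophage, C1qa, C1qb and C1qc at 20 or more, Kupffer with Cd5l, Vsig4 and Clec4f at 3 or more; Sox5 at 2 or more with myeloid genes at 3 or more; endothelial, Ptprb and Stab2 at 3 or more; CD8 T, Cd3 genes at 2 or more and Cd8 genes at 1 or more; B, Cd79a and Cd79b at 2 or more. Barcodes meeting another gate were left out of the hepatocyte gates, and barcodes of 2 non-hepatocyte lineages out of all; a barcode meeting the hepatocyte gate and 1 other stayed in that other gate; Sox5 barcodes were kept out of the macrophage gates. Counts were pooled per gate and library into CPM. Log2 ratios used a pseudocount of 10 CPM, and genes with at least 20 UMIs over both libraries were counted. Exact Poisson, conditional binomial and Clopper-Pearson 95% intervals cover counting error only. Only the intervals of ratios were tried on simulated data. Those counts were drawn as Poisson counts without clumping, so the trial cannot show how the intervals behave where UMIs clump in single barcodes. No test across samples was possible.

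In hepatocytes all 32 members are described; elsewhere the 4 with the largest log2 ratio in size among those with at least 50 UMIs were named, and the 6 largest of the other pathway genes. A member whose level is described across gates is named as well. Members and lists were chosen with earlier results of these data known. Gene coordinates are from GENCODE on GRCm38. Alternatives covered the pseudocount, filters, gates, doublets, free RNA and subsets. Intervals came from scipy 1.17.1, tables from pandas 2.3.3 with numpy 2.4.6, and plots from matplotlib 3.10.9, all under Python 3.11.15.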

Additional observations from a re-analysis of the deposited data

Results flagged for a closer look

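For 4 members the Crtc2-/- over Crtc2+/+ ratio lay on opposite sides of 1 in the 2 hepatocyte gates, with counting intervals that left out 1 in both. The difference between the gates was not tested, since each gate holds 1 library per genotype. Acaa1b, the peroxisomal thiolase gene, had a log2 ratio of 2.20 in keratin-high and -0.81 in keratin-low hepatocytes, a difference of 3.02. Acadm, the medium-chain dehydrogenase gene, had 0.71 and -0.83, a difference of 1.54. Etfb, the electron transfer flavoprotein subunit gene, had 0.81 and -0.39, a difference of 1.20. Acadl, the long-chain dehydrogenase gene, had 0.40 and -0.63, a difference of 1.03. The median mitochondrial share was 1.28% against 4.51% in keratin-high and 0.230% against 8.28% in keratin-low barcodes of the Crtc2-/- against the Crtc2+/+ library, and its part in these differences was not tested. The keratin-high calls did not hold in barcodes with hepatocyte transcripts at 1% or more, where the ratio was 1.27 (0.930 to 1.78) for Acaa1b, 1.17 (0.871 to 1.59) for Acadm, 1.06 (0.882 to 1.29) for Etfb and 0.900 (0.704 to 1.16) for Acadl, all including 1. Keratin-low Etfb was also above 0 in 2 alternatives.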

How the results depend on the processing

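Of the alternative values computed for the members' medians, 81 stayed between the medians of the single members' lower and upper interval limits. Where that range included 0, such a value could still have changed sign. Of the rest, 1 moved outside the range and 1 reversed. For the 73 members in gates whose counting interval left out 1, 691 values kept direction and stayed inside that interval, 63 moved outside it and 23 reversed. For the other 130, whose interval included 1, the sign changed in 116 of 1308 values. The Sox5 myeloid median was -0.077 with barcodes of more than 1 lineage left out and 0.17 in barcodes outside the hepatocyte gate with under 4 keratin UMIs. In the last setting these log2 ratios, whose intervals had lain below 1, turned positive: Acadl 0.31, Acads 0.034, Hadha 0.49, Eci1 0.58, Eci2 0.17, Decr1 0.094, Etfa 0.37, Etfb 0.54 and Acat1 0.018. Among Sox5 members whose intervals had included 1, Acaa2 was 1.48, Acaa1a 0.49, Slc25a20 0.13 and Etfdh 0.066 there. With barcodes of more than 1 lineage left out, Hadha was 0.24, Etfa 0.24 and Etfb 0.21, and with free RNA subtracted, Hadha was 0.089, Decr1 0.16 and Etfa 0.23. In keratin-high barcodes with hepatocyte transcripts at 1% or more, Acadl was -0.15 and Acaa2 -0.002. Keratin-low Etfb was 0.23 as a per-barcode mean and 0.071 at 1% or more. With gates as written, Echs1 was -0.064 in non-Kupffer macrophages and Ppard -0.11 in B cells. In endothelial barcodes with at least 3 Stab2 UMIs, Acadvl was 0.46 and Hadha 0.12, and of members whose intervals had included 1, Ppard was -0.55 and Cpt1a -0.32. Beyond the change of barcodes itself, the cause was not tested. Keratin-high Acaa1b ranged from 0.34 to 3.22, Bdh1 from 0.87 to 1.82, Ppara from 0.90 to 1.47 and Pdk4 from 0.48 to 3.06. The keratin-low gate was not run under 1% (6 Crtc2-/- and 5 Crtc2+/+ barcodes) or at 5000 UMIs or more (8 and 4).

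No paired analysis was possible because there is 1 library per genotype. Likewise there was no replicate to leave out. Depth limits the keratin-low gate most, where 12 members had under 20 UMIs.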
